A study of Homo sapiens with 7 samples.

Results

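The genes described here are 9 genes of the megakaryocyte lineage, ITGA2B, ITGB3, SELP, THBS1, VWF, CD9, RUNX1, MEIS1 and FLI1, among the 25702 gene IDs counted in 7 K562 lines. They were taken by name, as genes known from megakaryocytes and platelets, and all 9 have a row in the deposited counts. K562 is a cell line of chronic myeloid leukemia in which the BCR::ABL1 fusion kinase is active. The drug naive and DMSO vehicle lines were the control lines. The DasR lines were intermediates of a single escalation of dasatinib, a tyrosine kinase inhibitor, taken at 10, 15 and 25 nM (early stage) and at 50 and 200 nM (late stage). The early and late stage groups were formed in the study from the clustering of the same libraries. Each line gave 1 library. The replicates of a group are therefore different lines, their spread carries any effect of dose, and p-values measure only that spread. The DasR lines also followed one another in the same escalation, so they are not independent, although the tests treat them as independent. No second escalation was sequenced, so the p-values do not measure how another escalation would turn out. Total counts per library lay between 20059656 and 27844799.

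Megakaryocytes are the bone marrow cells that release platelets, and they arise from a progenitor that can also form erythroid cells. K562 cells express genes of both fates and are widely used to study the choice between them. In that choice GATA1 and its partners serve both lineages, RUNX1 and FLI1 favor the megakaryocyte program, and ITGA2B with ITGB3 forms the fibrinogen receptor that marks megakaryocytes and platelets. VWF, THBS1 and SELP are stored in platelet alpha granules, and CD9 is an abundant tetraspanin of the platelet surface.

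In these lines the 9 genes did not move as a unit. Compared with the control lines, ITGA2B and MEIS1 fell and CD9 and THBS1 rose in the early stage lines. At 50 and 200 nM ITGA2B was within or above the range of the controls, THBS1 was still raised, and RUNX1 was lower. FLI1 and SELP were at or under 3 counts in all 7 lines. The labels call these cells erythroblasts, and the fetal globin gene HBG2 was at 915 CPM (counts normalized to library size) or more in every line, whereas 12 defining markers of megakaryocytes summed to between 181 and 248 CPM, most of it NFE2, and 4 of the 12 were at or under 3 counts in every line.

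To show the regulatory sequence next to the genes that changed, the promoter windows of ITGA2B and MEIS1, which were lowest in the early stage lines, and of THBS1, which was raised in both stages, are printed 5′ to 3′ on the gene's own strand. Each window holds 250 bases before and 50 bases after a start site of RefSeq on GRCh38.p14. The capitals mark matches on either strand to short words bound by factors of this lineage. Those for GATA factors were AGATAA or AGATAG or TGATAA or TGATAG, those for ETS factors such as FLI1 were AGGAAG or CGGAAG, those for RUNX1 were TGTGGT or TGCGGT, and that for MEIS1 was TGACAG.
ITGA2B, minus strand of chr17:44389600-44389899: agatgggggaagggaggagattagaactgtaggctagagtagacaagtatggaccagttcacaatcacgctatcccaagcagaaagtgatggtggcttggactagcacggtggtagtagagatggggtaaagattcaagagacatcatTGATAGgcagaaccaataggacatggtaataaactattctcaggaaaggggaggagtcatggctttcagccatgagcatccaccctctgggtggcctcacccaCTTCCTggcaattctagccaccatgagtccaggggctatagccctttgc
MEIS1, plus strand of chr2:66434875-66435174: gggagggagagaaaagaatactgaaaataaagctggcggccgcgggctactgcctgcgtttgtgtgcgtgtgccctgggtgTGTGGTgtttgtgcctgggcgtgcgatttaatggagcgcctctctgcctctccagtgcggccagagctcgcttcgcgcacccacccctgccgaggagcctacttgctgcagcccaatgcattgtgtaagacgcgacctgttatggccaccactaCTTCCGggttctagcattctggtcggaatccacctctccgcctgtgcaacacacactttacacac
THBS1, plus strand of chr15:39580829-39581128: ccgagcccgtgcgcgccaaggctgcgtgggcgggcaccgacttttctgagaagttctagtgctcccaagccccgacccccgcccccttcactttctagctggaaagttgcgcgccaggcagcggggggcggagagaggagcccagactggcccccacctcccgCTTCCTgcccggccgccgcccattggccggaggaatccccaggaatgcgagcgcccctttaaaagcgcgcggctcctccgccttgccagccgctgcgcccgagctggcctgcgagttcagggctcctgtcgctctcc
The ITGA2B window held 1 GATA word and 1 ETS word, the latter read on the opposite strand right at the start site. The MEIS1 window held 1 RUNX word and 1 ETS word, and the THBS1 window 1 ETS word. No match overlapped another in these 3 windows. Of 35116 promoter windows of the same 300 bases, 25.0% held a GATA word, 46.9% an ETS word, 19.6% a RUNX word and 15.8% the MEIS word, so that such matches are common, and a match is only a description of the letters. Among the other members, windows were found for SELP, RUNX1 and CD9, the last with 4 start sites, and VWF, ITGB3 and FLI1 were matched to no window.

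ITGA2B encodes the alpha IIb subunit (CD41) of the fibrinogen receptor and lies on chromosome 17 at 42449548 to 42467017 of hg19, on the minus strand. It was at 63.9 CPM in drug naive cells and 52.5 CPM with DMSO. It was at 13.4, 5.96 and 13.2 CPM in the 10, 15 and 25 nM DasR lines. In the 50 and 200 nM DasR lines it was at 56.8 and 99.2 CPM. Every early stage line lay below both controls, the 50 nM line lay between them, and the 200 nM line lay above all others, 16.6 times the 15 nM line. The mean of the early stage lines, 10.8 CPM ± 4.23 (SD, n = 3), was 0.186 times that of the controls, 58.2 CPM ± 8.11 (SD, n = 2).

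Changes were tested by edgeR's quasi-likelihood test on the counts of all 7 libraries, over the 10452 genes that reached 10 CPM in 2 or more libraries. Each FDR given here is a Benjamini-Hochberg adjusted p-value of this test unless another tool is named, and genes under 0.005 are called changed. Changes are log2 fold changes (log2FC) with their standard error (SE). Early stage lines gave ITGA2B a log2FC of -2.44 (SE 0.37, FDR 0.00234). Late stage lines gave 0.40 (SE 0.39, FDR 0.465), which is about the size of its own error. Between late and early stage lines ITGA2B differed by 2.84 on the log2 scale (SE 0.37, FDR 0.0167). This is the smallest FDR in that comparison, and it is above the threshold. The adjustment gave the same FDR to other genes, among them GATA2, ITGA5, TBXA2R and ANGPT1. Of these, TBXA2R and ANGPT1 had a smaller unadjusted p than ITGA2B. Without a filter on low counts (FDR 0.00288) and by DESeq2 (FDR 5.12e-14) ITGA2B was called. The fall in the early stage lines lost its call without the drug naive (FDR 0.0208), DMSO (0.0107), 10 nM (0.00524) or 25 nM line (0.00817), with the log2 fold change between -2.64 and -2.14 over all 7 such fits. Without the 200 nM line, the late stage value was -0.051.

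ITGB3 encodes the beta 3 subunit (CD61), the partner of ITGA2B in the same receptor, and lies on the plus strand of chromosome 17 at 45331193 to 45391109 of hg19. Its level was 9.52 CPM in drug naive cells and 3.70 CPM with DMSO. The DasR lines, from 10 to 200 nM, were at 6.33, 7.97, 6.38, 8.11 and 4.77 CPM, all between the 2 controls. ITGB3 was under 10 CPM in every line and was therefore tested among 14899 genes that reached 1 CPM in 2 or more libraries. There the log2FC was 0.04 in the early stage lines (SE 0.41, FDR 0.948) and -0.03 in the late stage lines (SE 0.46, FDR 0.963). A change of several such SEs would be needed to pass the threshold. The signs of these values turned when single lines were left out.

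SELP encodes P-selectin, a receptor for leukocytes that platelets and endothelial cells store in granules and expose on activation (chromosome 1, 169558087 to 169599431 of hg19, minus strand). It held 2 counts in the 10 nM line, 1 count each in the 15, 25 and 50 nM lines, and 0 in the drug naive, DMSO and 200 nM lines. The highest 95% exact Poisson upper bound over the 7 lines was 0.278 CPM. SELP was thus at the floor of 3 counts in every line, which is between 0.108 and 0.150 CPM, and no change can be given for it.

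THBS1 encodes thrombospondin 1, an adhesive glycoprotein of platelet granules and of many other cells, and lies on chromosome 15 at 39873280 to 39891667 of hg19, on the plus strand. It was at 0.904 CPM in drug naive cells and 1.75 CPM with DMSO. The 10, 15 and 25 nM lines held 16.6, 45.4 and 36.9 CPM. The 50 and 200 nM lines held 52.8 and 17.8 CPM. All 5 DasR lines lay above both controls, and the early and late stage lines overlapped, with the lowest values at 10 and 200 nM. The mean level was 24.9 times that of the controls at the early stage and 26.6 times in the late stage lines.

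The log2FC of THBS1 was 4.60 in the early stage lines (SE 0.71, FDR 0.00260) and 4.70 in the late stage lines (SE 0.74, FDR 0.00444), and the stages differed by 0.10 (FDR 0.919). limma-voom gave 4.50 (FDR 0.114) and 4.51 (FDR 0.137), so that the calls depend on the tool. In the early stage the call was lost without the drug naive (FDR 0.0294), DMSO (0.0179), 15 nM (0.00634) or 25 nM line (0.00897), and in the late stage without the drug naive (0.0418), DMSO (0.0244), 15 nM (0.00600), 25 nM (0.0105) or 50 nM line (0.00973), or when only the control and late stage lines were fitted (0.00743). THBS1 overlaps FSIP1 on the opposite strand, which was at 0.499 CPM or less in every line.

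VWF encodes von Willebrand factor, the large glycoprotein that tethers platelets to collagen, and lies on the minus strand of chromosome 12 at 6058043 to 6233936 of hg19. It held 14 counts in drug naive cells and 7 with DMSO, which are 0.666 and 0.291 CPM. The 10, 15 and 25 nM lines held 37.0, 3.88 and 7.93 CPM, with 1028 counts at 10 nM. The 50 and 200 nM lines held 13.8 and 6.67 CPM. All 5 DasR lines lay above both controls, and the 10 nM line stood apart from the other 6. The spread within the early stage was larger than its mean, 16.3 CPM ± 18.0 (SD, n = 3).

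The log2FC of VWF was 5.08 in the early stage lines (SE 1.22, FDR 0.0131) and 4.41 in the late stage lines (SE 1.25, FDR 0.0319), so neither passed the threshold. DESeq2 called both (FDR 6.12e-05 and 0.00237), and edgeR without a filter on low counts called VWF in the early stage (FDR 0.00420). Without the 10 nM line the early stage value was 3.60 (FDR 0.00774), and the difference between late and early stage, -0.68 over all lines, turned to 0.80. VWF has a near-identical partial pseudogene, VWFP1, which had no row of its own, and how reads shared by both were counted is not given in the sources used here.

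CD9 encodes a tetraspanin, a membrane protein that organizes integrins and other receptors, and lies next to VWF on chromosome 12 at 6308881 to 6347437 of hg19, on the plus strand. It was at 1.62 CPM in drug naive cells and 1.12 CPM with DMSO. The 10, 15 and 25 nM lines held 15.2, 19.0 and 12.8 CPM. The 50 and 200 nM lines held 8.59 and 2.73 CPM. The early stage lines were the 3 highest and did not overlap the late stage lines, and the 200 nM line was 0.318 times the 50 nM line. The exact Poisson interval of the 200 nM line was 2.08 to 3.53 CPM. It overlapped that of the drug naive line (1.12 to 2.26 CPM) but not that of the DMSO line (0.740 to 1.63 CPM).

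CD9 had a log2FC of 3.50 in the early stage (SE 0.54, FDR 0.00256), with a mean level 11.4 times that of the controls. In the late stage lines the value was 2.03 (SE 0.55, FDR 0.0280), with 0.97 without the 50 nM line, and the difference from the early stage was -1.47 (FDR 0.0790). DESeq2 called CD9 in the late stage (FDR 0.000658). The early stage call was lost with limma-voom (FDR 0.00981) and without the drug naive (0.0216), DMSO (0.0235), 10 nM (0.00641), 15 nM (0.00719) or 25 nM line (0.00779).

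RUNX1 encodes a transcription factor that is needed for megakaryocyte maturation, and its annotation spans 36160098 to 37376965 on the minus strand of chromosome 21 of hg19. It was the most abundant of the 9 genes in every line by CPM. It was at 184 CPM in drug naive cells and 225 CPM with DMSO, and at 171, 188 and 169 CPM in the 10, 15 and 25 nM lines. The 50 and 200 nM lines held 121 and 122 CPM. The early stage lines overlapped the controls, and both late stage lines lay below all others. The log2FC of RUNX1 was -0.23 in the early stage lines (SE 0.10, FDR 0.0888) and -0.77 in the late stage lines (SE 0.11, FDR 0.00297). The late stage call was lost without the drug naive (FDR 0.0105), DMSO (0.0133), 10 nM (0.00646), 25 nM (0.00911), 50 nM (0.0119) or 200 nM line (0.0140), and in a fit of only the control and late stage lines (FDR 0.0125).

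MEIS1 encodes a homeobox factor that works with HOX proteins in stem cells and megakaryocyte progenitors, and lies on the plus strand of chromosome 2 at 66660584 to 66801001 of hg19. It was at 11.1 CPM in drug naive cells and 10.4 CPM with DMSO. The 10, 15 and 25 nM lines held 4.28, 2.33 and 3.89 CPM. The 50 and 200 nM lines held 7.92 and 7.18 CPM. The 3 groups did not overlap, with the early stage lowest and the controls highest. The log2FC was -1.64 in the early stage lines (SE 0.29, FDR 0.00397) and -0.53 in the late stage lines (SE 0.31, FDR 0.224), and the stages differed by 1.10 (FDR 0.0491). The early stage call was lost without any single one of the 7 libraries, with an FDR between 0.00569 without the 200 nM line and 0.0348 without the drug naive line, and in a fit of only the control and early stage lines (FDR 0.00620).

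FLI1, the ETS factor that drives many megakaryocyte genes, ITGA2B among them, lies on the plus strand of chromosome 11 at 128556430 to 128683162 of hg19. It held 2 counts in drug naive cells and none in any of the other 6 lines. The 95% exact Poisson upper bound was 0.344 CPM in the drug naive line and between 0.132 and 0.184 CPM elsewhere.

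**Figure D1:**
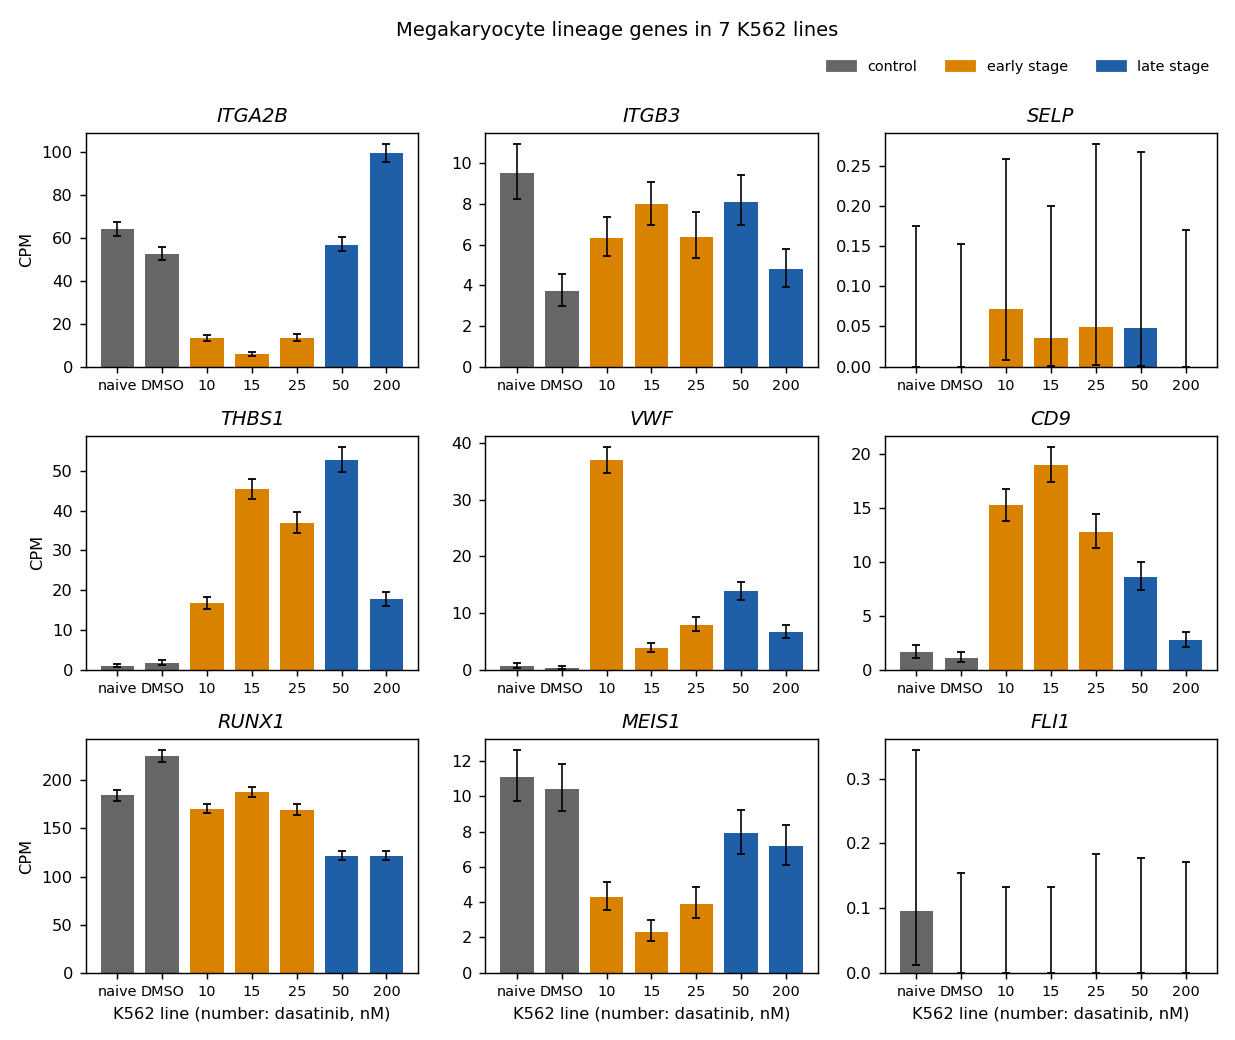
Level of each of the 9 genes, in CPM from 0, in each of the 7 K562 lines (gray, control; orange, early stage; blue, late stage). Bars are single libraries and the lines on them are 95% exact Poisson intervals, which cover counting error only; ITGA2B and MEIS1 were lowest in the 3 early stage lines, while THBS1, VWF and CD9 were above both controls in all 5 DasR lines.

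Set beside one another, 6 of the 9 genes reached 10 CPM in 2 or more libraries, RUNX1 in all 7 and ITGA2B in 6. MEIS1 reached it only in the control lines, CD9 only in the early stage lines, VWF only in the 10 and 50 nM lines and THBS1 only in the DasR lines, so that these 4 passed the filter only through the lines where they are high. In the early stage lines 4 of the 6 were called, whereas 18.0% of all 10452 genes were called, 7.92% higher and 10.1% lower. At the late stage 2 of the 6 were called, beside 7.98% of all genes, 3.42% higher and 4.56% lower. Because of the filter, these counts say nothing about the 9 genes as a list. Between late and early stage 0 of the 6 were called by edgeR, as were 0 of all genes (0.0%), although 4 of the 6 and 3450 of all genes had an unadjusted p under 0.05. DESeq2 called 2 of the 6 there, ITGA2B and RUNX1, beside 1135 of all genes, and limma-voom called 0 of the 6 and 0 of all genes. At an FDR of 0.05, 3 of the 6 passed, ITGA2B, RUNX1 and MEIS1, as did 12.7% of all genes.

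**Figure D2:**
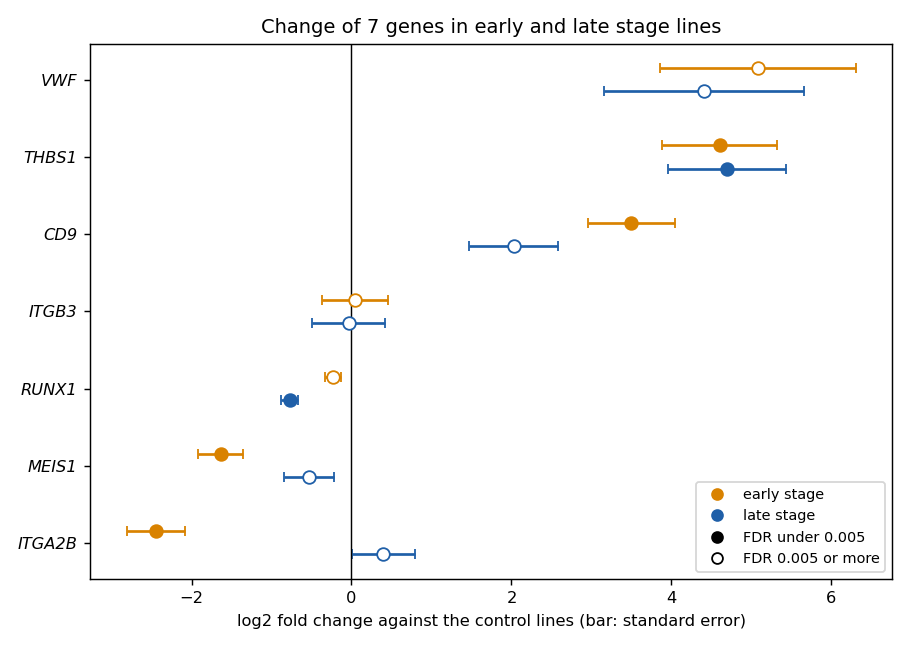
Log2 fold change against the control lines of the 7 genes that could be tested (ITGB3 in the fit with the 1 CPM limit), with its standard error as a horizontal bar, for early stage (orange) and late stage lines (blue). Filled points passed an FDR of 0.005: ITGA2B, MEIS1, CD9 and THBS1 at the early stage and RUNX1 and THBS1 in the late stage.

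Because long transcripts collect more reads, the 6 genes with a deposited length were also ranked by CPM per kilobase. In the control lines the order of the mean levels was RUNX1 (25.7), ITGA2B (17.5), MEIS1 (3.38), CD9 (1.11), THBS1 (0.229) and VWF (0.0542), and no neighbors in this order overlapped. In the early stage lines it was RUNX1 (22.1), CD9 (12.7), THBS1 (5.70), ITGA2B (3.25), VWF (1.84) and MEIS1 (1.10), and from THBS1 down each gene overlapped the next. In the late stage lines ITGA2B came first (23.4), ahead of RUNX1 (15.2), THBS1 (6.09), CD9 (4.60), MEIS1 (2.37) and VWF (1.16), where THBS1 overlapped CD9 and CD9 overlapped MEIS1. ITGA2B thus moved from the second place in the controls to the fourth at the early stage and to the first in the late stage lines. The CPM summed over all 9 genes stayed between 251 and 295 in every line, with RUNX1 the largest part in each.

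As a description over 7 libraries that share their groups, ITGA2B and MEIS1 had a Pearson r of 0.911 on the log2 CPM scale, and CD9 and THBS1 one of 0.844. Over the same 7 libraries ITGA2B and CD9 had an r of -0.810. Of all 10452 genes, those whose pattern was most like ITGA2B were WWP2 (r 0.997), FCGR2A (0.996), an Fc receptor that is also found on platelets, and KIFC3 (0.995). For MEIS1 they were FOXL2NB (0.997), TBL1X (0.997) and BBS7 (0.996). For CD9 they were RXRA, MPP2 and CRIM1 (each 0.997), and for THBS1 RARS2 (0.997), ZFYVE27 (0.993) and PSTK (0.991). For RUNX1 they were SLC9A8 (0.994), LOC81691 (0.991) and NIFK-AS1 (0.983), and for VWF LOC100506971 (0.996), SCAF8 (0.984) and NUP214 (0.982). The log2 CPM of FCGR2A spanned 3.84 over the lines and that of WWP2 only 0.47, so that a high r does not mean a change of like size.

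The transcription factors around these genes were examined next. Of 20 listed factors and cofactors of the megakaryocyte lineage, 18 were tested. At the early stage 3 rose, 2 fell and 13 did not pass, so that 27.8% were called beside 18.0% of all genes. LMO2, the adaptor that joins GATA1 to TAL1, rose by 1.09 on the log2 scale (SE 0.12, FDR 0.000762), and ZFPM1, the GATA1 cofactor FOG1, by 1.06 (SE 0.15, FDR 0.00209). MAFK, a small MAF partner of NFE2, rose by 0.96 (FDR 0.00142). GATA2, the GATA factor of progenitors, was at 144 and 149 CPM in control lines, at 62.5, 45.4 and 71.3 CPM at the early stage and at 137 and 211 CPM in the 50 and 200 nM lines. It changed by -1.31 in the early stage lines (SE 0.22, FDR 0.00355), and ETV6, an ETS family repressor, by -0.83 (FDR 0.00122).

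Late in the escalation LMO2 (1.33, FDR 0.000989) and ZFPM1 (1.51, FDR 0.00141) were the factors that rose, and none fell, so that 11.1% were called beside 7.98% of all genes. GATA1 itself was between 165 and 295 CPM in all lines, with log2FC values of -0.18 (FDR 0.283) and 0.32 (FDR 0.115). The median log2FC of the 18 factors was -0.08 in the early and 0.01 in the late stage lines, beside 0.00 for all genes in both. The number of factors called in the early stage, 5 with all lines, was 0 without the drug naive or DMSO line, 1 without the 25 nM line and 2 without the 15 nM line. At the late stage it was 2 with all lines, 0 without either control and 1 without the 200 nM line. ETS1, an ETS factor under the 10 CPM limit, held 506 counts (drug naive), 122 counts (DMSO) and 0, 1, 0, 4 and 0 counts from 10 to 200 nM. With the 1 CPM limit ETS1 was called lower in the early stage (FDR 0.00116) but not in the late stage (FDR 0.00526).

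Among 24 listed platelet surface receptors, 11 were tested. ITGA5 and ITGB1, which together form the fibronectin receptor, were the 2 that fell in the early stage lines, and none rose. This is 18.2% of the 11 receptors, beside the 18.0% of all genes. ITGA5 was at 271 and 193 CPM in control lines, 87.7, 63.9 and 97.6 CPM at the early stage and 208 and 296 CPM in the late stage lines. Its log2FC was -1.50 in the early stage (SE 0.24, FDR 0.00287) and 0.09 in the late stage (FDR 0.814), an order of the lines close to that of ITGA2B. ITGB1 changed by -0.62 in the early stage (FDR 0.00294). F2R, the thrombin receptor PAR1, was the only receptor called in the late stage (9.09%, beside 7.98% of all genes), at 122 and 112 CPM beside 39.4 and 36.5 CPM in control lines (log2FC 1.60, SE 0.16, FDR 0.000991).

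The median log2FC of the 11 receptors was -1.24 at the early stage and 0.79 late, and over the 15 tested with the 1 CPM limit it was -0.83 and 0.22. P2RX1, the ATP-gated channel of platelets, is named here after its values were seen. It was at 70.0 and 43.2 CPM in control lines and at 1.08, 0.215 and 5.48 CPM in the early stage lines, and its change of -4.76 had an FDR of 0.00585. Without the drug naive, DMSO, 10 nM or 15 nM line no receptor was called in the early stage, and without the 25 nM line 1 was. F2R or another receptor was called in the late stage in all fits but those without a control line.

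Of 25 listed genes of platelet granule cargo and granule assembly, 13 were tested. At the early stage 1 rose and 4 fell, 38.5% of those tested beside 18.0% of all genes, and at the late stage 2 fell, 15.4% beside 7.98%. VEGFA, the vascular growth factor that platelets also carry, was at 823 and 549 CPM in control lines, 116, 76.4 and 104 CPM at the early stage and 204 and 252 CPM in the late stage lines. Its log2FC was -2.82 in the early stage (SE 0.24, FDR 0.000313) and -1.62 in the late stage (SE 0.26, FDR 0.00498), where the call was lost with the 1 CPM limit (FDR 0.00619). RAB27A, a small GTPase of granule docking, changed by -0.98 (FDR 0.00135) and -1.45 (FDR 0.00111). NBEAL2, which is needed to form alpha granules, changed by -0.85 in the early stage (FDR 0.00270), and VIPAS39, a partner of VPS33B in the same step, by -0.75 (FDR 0.00356).

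LTBP1, which binds latent TGF-beta, was the granule gene that rose in the early stage, by 1.22 (FDR 0.00288). THBS1, itself granule cargo, was thus called higher in early stage lines in which VEGFA and NBEAL2 were called lower. VWF, also granule cargo, was above both controls in these lines but did not pass the threshold (FDR 0.0131). PF4 and PPBP, the chemokines that fill platelet granules, held at most 1 and 6 counts in any line. The count of called granule genes in the early stage, 5 with all lines, was 1 without the drug naive, DMSO or 25 nM line, 2 without the 10 nM line and 3 without the 15 nM line. At the late stage it was 2 with all lines, 0 without the drug naive, DMSO or 50 nM line and 1 without the 10, 25 or 200 nM line.

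The cytoskeleton list, which holds genes used to build platelets and proplatelets, had 13 of 15 genes tested. TPM1, an actin-binding tropomyosin, was at 76.0 and 55.5 CPM in control lines and between 11.7 and 24.1 CPM in the 5 DasR lines. It changed by -2.16 in the early stage (SE 0.23, FDR 0.000669) and by -1.70 in the late stage (SE 0.26, FDR 0.00389), where it was the only gene of the list to be called. TPM4 changed by -1.63 (FDR 0.00147) and FLNA, the filamin that anchors the platelet GPIb complex, by -1.01 (FDR 0.00490) in the early stage, a call that FLNA lost with the 1 CPM limit (FDR 0.00538). TUBA4A, an alpha tubulin abundant in platelets, rose by 1.15 (FDR 0.00113). TUBB1, the platelet beta tubulin, was at 11.4 and 7.82 CPM in control lines and between 18.2 and 31.7 CPM in the DasR lines, with a change of 1.30 (FDR 0.00992) in the early and 1.21 (FDR 0.0235) in the late stage. At the early stage 4 genes were called with all lines, 30.8% of those tested beside 18.0% of all genes, and at the late stage 7.69% beside 7.98%. The early stage count was 0 without the drug naive line, 1 without the 25 nM line and 2 without the 10 or 15 nM line. TPM1 or another gene was called in the late stage with all lines and without the 10 nM line, and none was called without any other line.

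Integrin activation depends on talin, kindlin and RAP1, which act on the ITGA2B and ITGB3 receptor from inside the cell. Of 16 listed genes of this step and of signaling below platelet receptors, 14 were tested. In the early and late stage 0 were called by edgeR, beside 18.0% and 7.98% of all genes. At an unadjusted p under 0.05 there were 10 of the 14 in the early stage, all lower, and 5 in the late stage, beside 5665 and 4798 of all 10452 genes. DESeq2 called 3 in each stage, beside 3548 and 2503 of all genes, and limma-voom 1 and 0, beside 1918 and 788. The median log2FC was -0.45 at the early stage and 0.01 late. FERMT3, the blood cell kindlin, is named here after its values were seen. It was at 212 and 207 CPM in control lines, 10.8, 3.02 and 51.9 CPM at the early stage and 180 and 351 CPM in the late stage lines. Its change of -3.30 in the early stage had a SE of 0.93 and an FDR of 0.0238, with a wide spread among the 3 early stage lines. With 1 line left out the list had up to 2 calls in the early stage, without the 15 nM line, and up to 1 in the late stage.

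**Figure D3:**
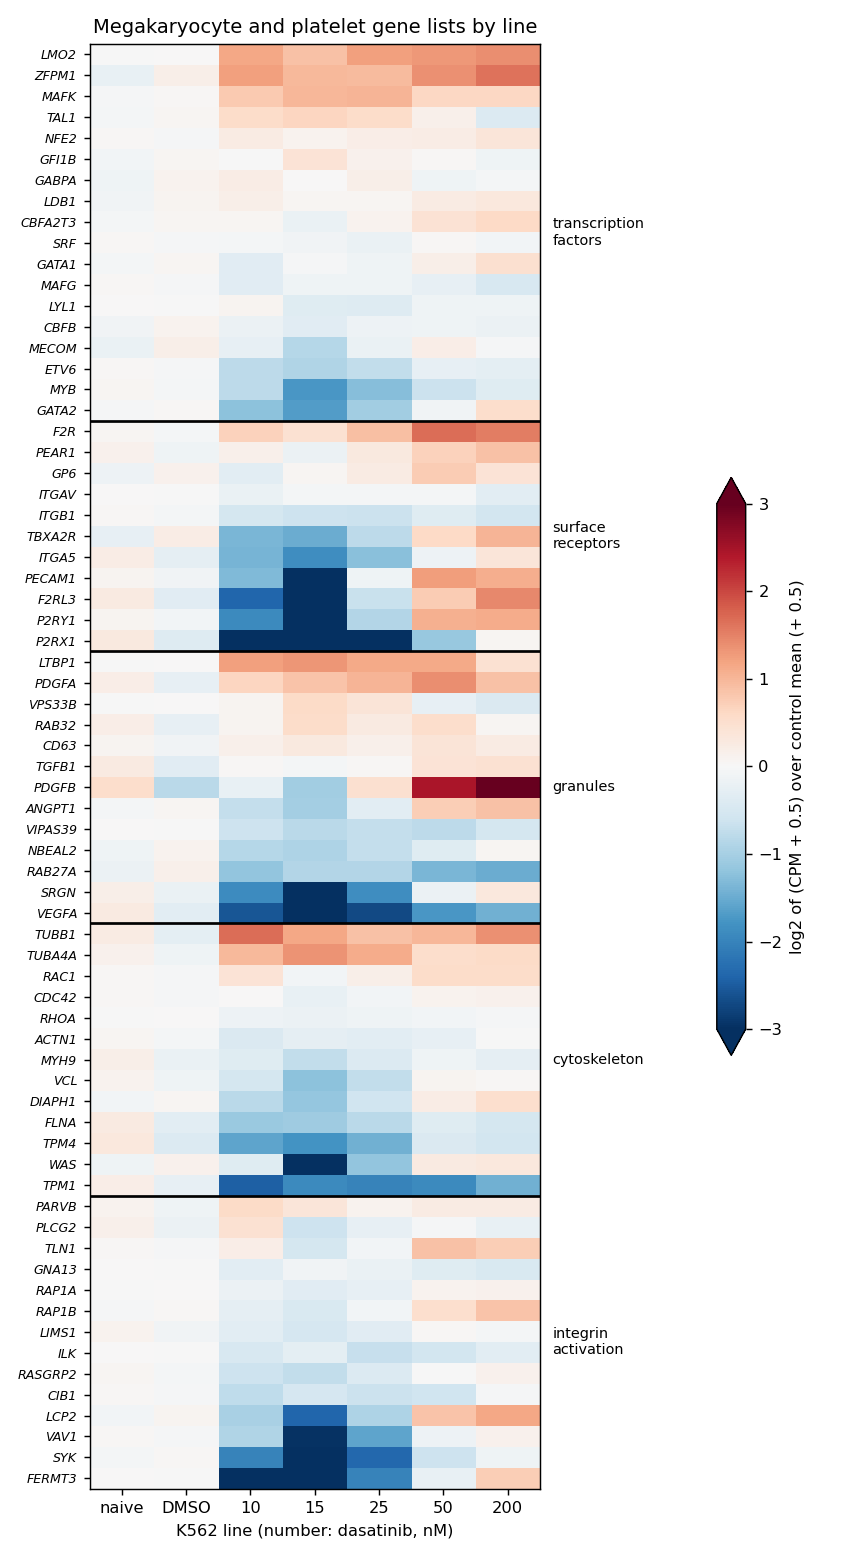
Level of 69 tested genes of 5 megakaryocyte and platelet lists (rows, sorted within a list by the early stage lines) in each of the 7 lines (columns), as the log2 ratio of CPM + 0.5 to the control mean + 0.5, with colors ending at -3 and 3. The 15 nM line held the lowest values of many receptor and signaling genes, among them P2RX1, FERMT3 and SYK, which were at 58.5, 351 and 76.0 CPM at 200 nM.

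Proteins that bind the 9 gene products were listed as a further group, of which 11 of 17 genes were tested. CD81 and CD151, tetraspanins like CD9, had a log2FC of 0.42 (FDR 0.00910) and 0.20 (FDR 0.122) in the early stage, and ITGAV, the other alpha partner of ITGB3, one of -0.11 (FDR 0.403). At the late stage 0 of the 11 were called by edgeR, beside 7.98% of all genes. There 4 of the 11 had an unadjusted p under 0.05, beside 4798 of all 10452 genes. DESeq2 called 3, beside 2503 of all genes.

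The other fate open to K562 cells was measured with 23 erythroid markers, of which 19 were tested. In the early stage lines 8 rose, 42.1% beside the 7.92% of all genes called higher, and 0 fell, with a median log2FC of 1.19 over the list. ANK1, an anchor of the red cell membrane skeleton, rose by 1.08 (FDR 0.000262), TFRC, the transferrin receptor, by 1.13 (FDR 0.000677), SPTB, beta spectrin, by 1.02 (FDR 0.000839) and HEMGN by 2.37 (FDR 0.00125). EPOR, HBG1, HBA2 and HBA1 also rose, with the reservation that HBA1 and HBA2, like HBG1 and HBG2, are near-identical copies whose reads can be split between them. AHSP, the chaperone of alpha globin, lay the other way, at 1.95 and 2.29 CPM in control lines and at 0.539 CPM or less in the DasR lines, and with the 1 CPM limit its log2FC in the early stage was -2.71 (FDR 0.0359). At 50 and 200 nM ANK1 (0.70, FDR 0.00253) and TFRC (0.85, FDR 0.00373) were called, 10.5% of those tested beside 3.42% of all genes called higher, and the median was 0.59.

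Summed over the 23 markers, the erythroid level was 5013 CPM in drug naive cells and 4617 CPM with DMSO. It was 14676, 16266 and 12949 CPM in the 10, 15 and 25 nM lines, and 8545 and 6014 CPM in the 50 and 200 nM lines. The 15 nM line was the highest for the erythroid sum and the lowest for ITGA2B and MEIS1. In these bulk samples, fewer cells with a program and less RNA of it per cell cannot be told apart, and the part of the erythroid change in the values of the 9 genes was not tested. The count of 8 was 2 without the drug naive line, 3 without DMSO, 4 without 25 nM and 5 without the 10 or 15 nM line, and 14 without the 50 or the 200 nM line, while DESeq2 called 16. The late stage count of 2 was 1 without the 10 nM line and 0 without the drug naive, DMSO, 15, 25 or 50 nM line.

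**Figure D4:**
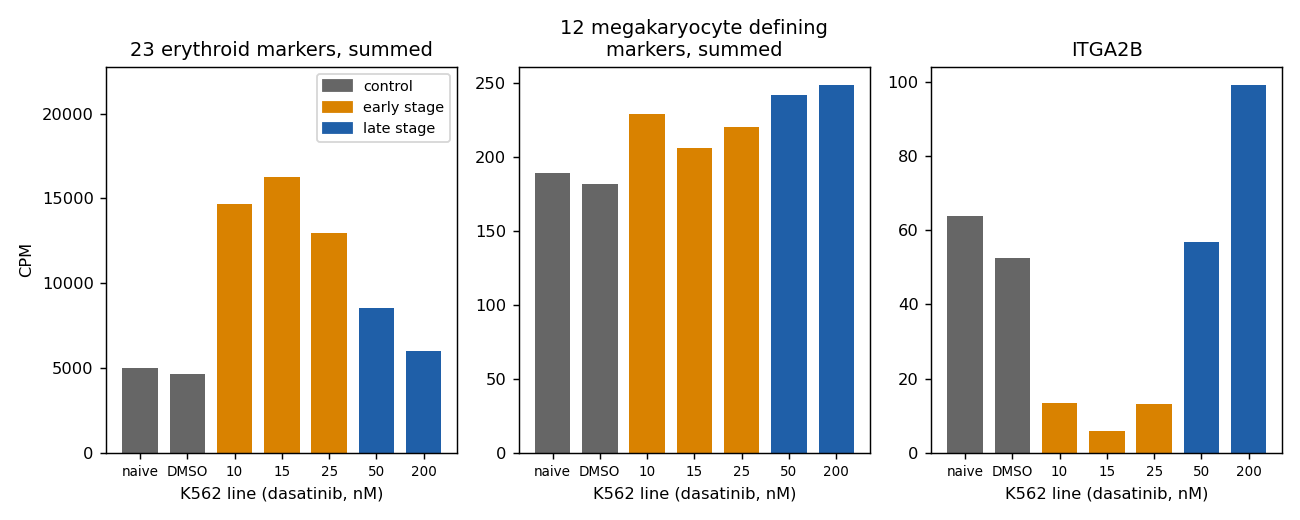
Summed CPM of 23 erythroid markers (left) and of 12 megakaryocyte defining markers (middle), and the CPM of ITGA2B (right), in each line (bars are single libraries; gray, control; orange, early stage; blue, late stage). The erythroid sum is highest in the 3 early stage lines, at 12949 CPM or more, where ITGA2B is lowest, and the megakaryocyte sum, 143.9 CPM or more of which was NFE2 in each line, stayed between 181 and 248 CPM.

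The platelet side was checked with 12 defining markers of megakaryocytes. GP1BB and CLEC1B held 0 counts in every line, 4 of the 12 were at the floor throughout, and the 12 summed to between 181 and 248 CPM. Most of this was NFE2, at 144 CPM or more in each line, a factor that erythroid cells use as well. The 3 tested at the 10 CPM limit were NFE2, GP6 and TUBB1. None of them was called by edgeR in the early or late stage, beside 18.0% and 7.98% of all genes. At an unadjusted p under 0.05 there were 1 and 3 of them, beside 5665 and 4798 of all 10452 genes. DESeq2 called 1 in each stage, beside 3548 and 2503 of all genes, and limma-voom called 0. GP1BA, the VWF receptor of platelets, was at 5.62 and 7.28 CPM in control lines and between 2.34 and 3.31 CPM in the DasR lines. With the 1 CPM limit its log2FC was -1.32 in the early stage (FDR 0.00376) and -1.07 in the late stage (FDR 0.0192).

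VWF, SELP and THBS1 are also genes of endothelial cells, so 12 endothelial markers were measured. CDH5, the defining cadherin of endothelium, held 0 counts in all 7 lines, and KDR was at 0.0499 CPM or less. The 12 summed to between 50.9 and 201 CPM, most of it EGFL7, which was at 126 and 59.5 CPM in control lines, lower at the early stage and highest at 200 nM (185 CPM). In the 10 nM line, where VWF was highest, 3 of the 12 markers, TIE1 (2.91 CPM), CLDN5 (1.04 CPM) and EMCN (7 counts), were also at their highest, and 4, EGFL7, PECAM1, ENG and ESAM, were below both controls. TIE1 and CLDN5 were nearly as high in the 15 nM line (2.48 and 1.01 CPM), where VWF was at 3.88 CPM. The part of these markers in the VWF values was not tested. Of the other cell types, 13 myeloid markers summed to between 50.0 and 168 CPM, with LYZ the most abundant, 10 stem and progenitor markers to between 26.2 and 44.5 CPM, 8 stromal markers to at most 21.3 CPM and 6 lymphoid markers to at most 10.6 CPM. The myeloid sum was lowest in the 15 nM line, where ITGA2B was also lowest.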

How the data were processed

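RNA from 7 K562 lines was measured, 1 library per line. Per the labels and the study's methods, the authors aligned paired reads to hg19 with STAR, counted them per gene with featureCounts, and deposited counts without normalization for 25702 gene IDs. Versions and the strand setting of the counting are not given in the sources used here. The authors also deposited 2 tables of comparisons for 10452 genes, from which symbols, chromosomes and gene lengths were taken, while their fold changes, mean levels and test results were not used.

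Groups followed the doses in the labels and the stages named in the study. Genes with 10 CPM or more in 2 or more libraries were kept, which left the same 10452 genes as in the deposited tables. After TMM scaling, all genes were fitted and tested by glmQLFit and glmQLFTest of edgeR 4.0.16 (R 4.3.3), with all 7 libraries, 3 groups and Benjamini-Hochberg adjustment at an FDR of 0.005. ITGB3 was tested with a 1 CPM limit. DESeq2 1.42.0 and limma-voom (limma 3.58.1) were alternatives, beside scaling, filter, groups in the fit, threshold and each library left out. Lines of a group differed by more than sampling noise (chi-square per degree of freedom 14.5 to 45.1). The test was also run on simulated counts for the early stage comparison, where 200 of 10452 genes were changed by 2 on the log2 scale. It called 201, of which 200 were changed. Its error rate in the real lines, which are not independent and whose spread differs between genes, was not tested. Intervals and floors cover counting error only.

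The members and gene lists were chosen with earlier results of these data known. The genes named are the 9 members, up to 4 called genes per list, direction and comparison with the smallest p, the defining markers, and the 3 genes most like each member. Others are said to be chosen after their values were seen, or were named to give the context of a list. Some genes of the lists are not reported here. Positions came from GENCODE on hg19, and promoter windows from RefSeq on GRCh38.p14.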

Additional observations from a re-analysis of the deposited data

Results flagged for a closer look

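Among the 107 listed genes that were tested, 13 had every early stage line on one side of both controls and every late stage line on the other side, which is 12.1% of them. Over all 10452 genes this held for 400, or 3.83%. The lists were chosen with earlier results of these data known, and the stages came from clustering the same libraries. These shares are therefore a description only and say nothing about the lists as sets. PECAM1, among the 13, passed the filter only through the late stage lines, where it is high. In 11 of the 13 the early stage lines were below and the late stage lines above, as in 213 of the 400. None of the 13 passed an FDR of 0.005 between late and early stage by edgeR's quasi-likelihood test.

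The receptors were F2RL3, the thrombin receptor PAR4, with a log2FC of late against early stage of 3.07 (FDR 0.0482), P2RY1, an ADP receptor, with 2.95 (FDR 0.0410), TBXA2R, the thromboxane receptor, with 2.06 (FDR 0.0167), and PECAM1 with 2.54 (FDR 0.102). P2RY1 was at 32.8 and 29.5 CPM in control lines, at 7.88, 1.47 and 16.9 CPM in early stage lines and at 65.4 and 68.0 CPM in late stage lines. Among signaling genes LCP2, the adaptor SLP-76, differed by 2.34 (FDR 0.0186), RAP1B by 0.94 (FDR 0.0167) and RAP1A by 0.37 (FDR 0.0386). The actin regulators WAS and DIAPH1 differed by 1.52 (FDR 0.180) and 1.20 (FDR 0.0167). The remaining genes in this direction were ANGPT1, a granule growth factor, with 1.48 (FDR 0.0167) and the myeloid marker CD33 with 1.13 (FDR 0.0281).

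In the opposite direction, VPS33B, which works with VIPAS39 in granule formation, differed by -0.72 (FDR 0.0316), and GYPC, an erythroid glycophorin, by -0.28 (FDR 0.102). Both were higher in all early stage lines than in the controls and lower in the late stage lines. Both stages are set against the same 2 controls, and each line is 1 library.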

How the results depend on the processing

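With 1 library per line, the calls rest on few lines. Over the tested members, 222 values under other settings kept their direction and their side of the threshold, 37 lost a call, 7 gained one and 10 reversed.

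DESeq2 called 3548 genes at the early stage, 2503 at the late stage and 1135 between stages, and 4 and 2 members in the last 2 comparisons. limma-voom called 2 members at the early and 1 at the late stage. At an FDR of 0.05 there were 4865, 3542 and 1328 genes, with 4 members at the late stage and 3 between stages. Without a filter on low counts 1287 genes were called at the late stage, and 295 genes and 1 member between stages. With only the control and late stage lines fitted, 257 genes and 0 members were called.

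With each line left out in turn, the genes called numbered 208 to 2066 at the early stage, 33 to 596 at the late stage and 0 to 198 between stages, and the members called 0 to 3 and 0 to 1 at the early and late stage. The lowest early and late counts came without the drug naive line, which leaves a single control that is assumed to vary like the other groups. Over the same fits the log2FC of ITGA2B at the late stage was -0.051 to 0.73, that of VWF between stages -1.31 to 0.80, and that of THBS1 between stages -0.90 to 0.68 (-0.22 without the 10 nM line). ITGB3, left out in a set of fits chosen after the data were seen, ranged from -0.51 to 0.92 at the early stage, -0.58 to 0.84 at the late stage and -0.51 to 0.26 between stages. It turned in sign without the DMSO (-0.51) or 15 nM line (-0.071) at the early stage, without the drug naive (0.84) or 200 nM line (0.30) at the late stage, and without the 15 (0.038) or 200 nM line (0.26) between stages. The cause was not tested. No paired analysis was possible because each line was sequenced once and no line of a group has a partner line in another group. Depth limits what can be said of FLI1 and SELP, which were at the floor.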

Other observations

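VWF and CD9 are neighbors on chromosome 12, with 74.94 kb between the end of VWF and the start of CD9 in hg19, and both were higher in all 5 DasR lines than in the controls. The genes around them were looked at after these values were seen. PLEKHG6, the next gene after CD9 in the annotation among those measured, was at 0.619 and 0.749 CPM in control lines, at 2.01, 3.38 and 1.99 CPM in early stage lines and at 1.30 and 0.926 CPM in late stage lines. With the 1 CPM limit its log2FC was 1.83 at the early stage (FDR 0.00860) and 0.71 at the late stage (FDR 0.242), so it did not pass 0.005 by edgeR. TNFRSF1A, farther along, had log2FC values of -0.26 (FDR 0.123) and 0.46 (FDR 0.0405), and LTBR of -0.08 (FDR 0.568) and 0.39 (FDR 0.0459). SCNN1A, which lies between them, overlaps LTBR on the opposite strand and was under the limit, was at 0.0476 and 0.208 CPM in control lines, at 0.288, 0.646 and 0.449 CPM in early stage lines and at 0.144 and 0.0463 CPM in late stage lines. On the other side of VWF, NTF3 held no counts and ANO2 was at 0.0359 CPM or less in every line.

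At the lower limit of 1 CPM, further listed genes were called, among them RAB38 and AZU1. RAB38, a granule GTPase, was at 0.428 and 0.416 CPM in control lines and between 3.47 and 3.77 CPM in all 5 DasR lines. It thus passed this limit only through the lines where it is high. Its log2FC was 3.10 at the early stage (FDR 0.000373) and 3.09 at the late stage (FDR 0.00100). AZU1, a myeloid granule gene, changed by -2.94 (FDR 0.000672) and -2.42 (FDR 0.00333). MMRN1, a VWF-binding protein of platelet granules, held 0 and 3 counts in the drug naive and DMSO lines and 22, 25, 84, 212 and 33 counts from 10 to 200 nM, with an FDR of 0.0457 at the early and 0.0231 at the late stage, and was not called.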
